A study of Mus musculus with 8 samples.

Results

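The amino acid transporter genes described here are the protein-coding mouse genes of 7 solute carrier families, Slc1a, Slc3a, Slc6a, Slc7a, Slc36a, Slc38a and Slc43a, chosen by symbol in the GENCODE M21 annotation. Of 64 such genes in that annotation, 59 were among the 24821 genes of the table, and Slc38a8, Slc6a11, Slc6a14, Slc6a3 and Slc7a12 are not analysed here. The 59 include Slc7a6os, a gene named for its position opposite Slc7a6 that does not encode a transporter, which leaves 58 transporter genes. Messenger RNA of epididymal fat, a white depot beside the testis, was sequenced in 4 libraries of Ccdc92 knockout (KO) mice and 4 libraries of wild type (WT) mice. All mice were male, on a C57BL/6 background, and were fed for 14 weeks on a high-fat diet in which 60% of calories came from fat, 20% from protein and 20% from carbohydrate. The WT mice were littermates of matching age, and the labels give neither the age nor which part of Ccdc92 was removed nor in which cells.

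Amino acids cross cell membranes on carrier proteins, and these families hold most of the carriers at the cell surface and several in the lysosome. Some take up amino acids together with sodium or protons (Slc1a, Slc6a, Slc36a, Slc38a), and others exchange one amino acid for another as a pair of a light chain (many Slc7a members) and a heavy chain (Slc3a). Slc7a1, Slc7a2 and their close relatives work without a heavy chain, and Slc43a1 and Slc43a2 let large neutral amino acids pass down their gradient. The Slc6a family also carries taurine, creatine and neurotransmitters. White adipocytes take up and release glutamine, alanine and branched-chain amino acids, and the fat of obese animals also holds many macrophages, which have carriers of their own.

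Values are normalized counts, that is reads per gene divided by a size factor of the library, and 23681088 to 33817478 reads per library stood behind them. Levels of different genes were compared per kilobase of exon. Ccdc92 itself had 9.19, 5.13, 9.67 and 4.85 normalized counts in KO replicates 1 to 4, against 54.1, 68.3, 105.8 and 99.2 in WT replicates 1 to 4, so the labels held for the targeted gene. Its log2 fold change, KO over WT, was -3.34 (SE 0.33), with a limma p of 0.000383 after Benjamini-Hochberg (BH) adjustment over all genes tested. A pair of WT libraries stood apart in genes of other tissues, and the KO libraries were not alike in them either. In KO replicate 3 the epididymal gene Lcn8 was at 107.5, against 0 to 1.86 in every other library. WT replicate 3 held liver transcripts, with Alb, the serum albumin gene, at 35472.2 there, against 407.5 to 843.4 in KO and 31.2, 61.5 and 42.1 in WT replicates 1, 2 and 4. The labels' extraction protocol covers liver as well as fat. WT replicate 4 lacked Adam7, an epididymal gene, at 0.94, against 0 to 387.0 in KO and 7804.6 to 19828.7 in the other WT libraries, and held Akr1b7 at 80635.9, against 0 to 5.75 in KO and 188.1 to 211.6 in the other WT libraries. Tested results that rest on either library are given with and without it.

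The test covered the 17798 genes that reached 10 normalized counts in 4 or more libraries, and of these 41.7% passed at a BH-adjusted p under 0.05, 20.2% higher in KO and 21.5% lower. Of the 59 members 42 entered that test, and of the other 17 there were 5 under 10 in every library. Lower in KO were 16 (38.1%) and higher were 6 (14.3%), and 20 did not pass. Their median log2 fold change was -0.38, beside -0.01 over all genes tested. Among the members past the test, 5 were 2-fold or more higher and 9 were 2-fold or more lower in KO, where 6.43% and 10.8% of all genes tested reached that size. Of the tested members, the groups did not overlap in 6 with KO above and in 15 with KO below. Over all genes tested these shares were 21.0% and 21.1%. Without WT replicates 3 and 4, a choice made after seeing the data, 7 members passed as higher and 14 as lower, of 4588 genes passing in all.

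**Figure D1:**
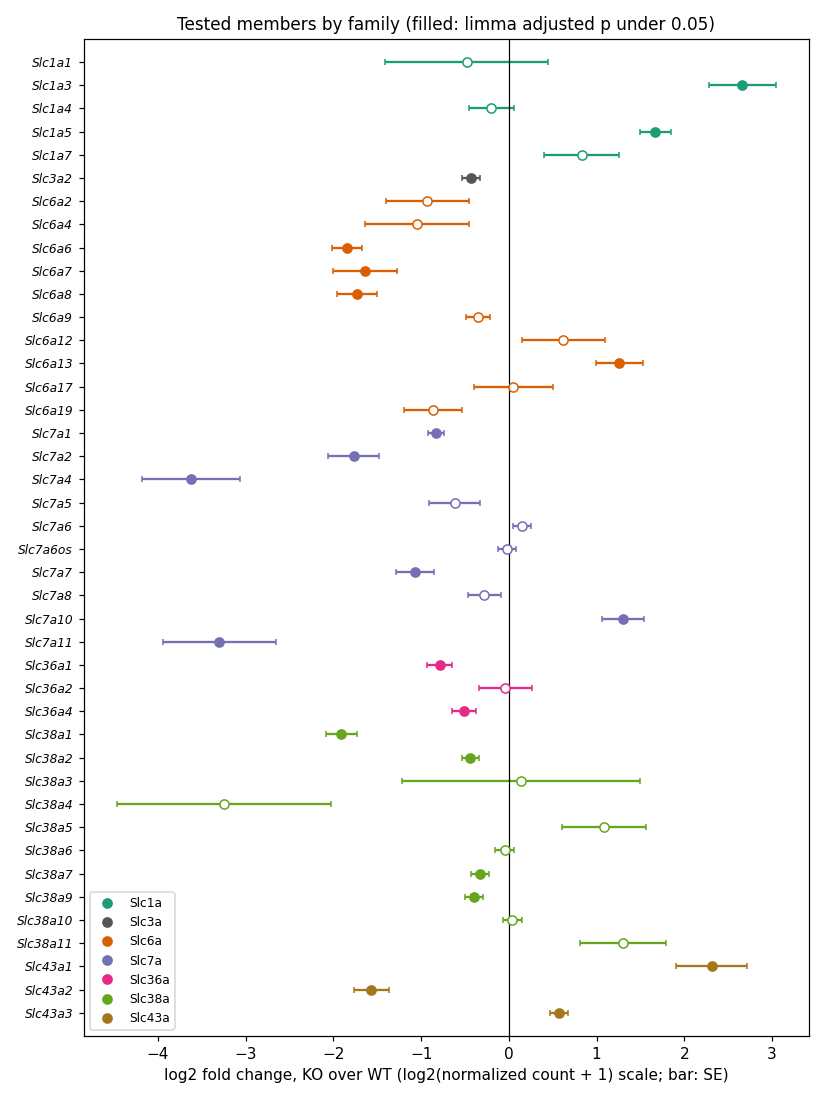
Log2 fold change, KO over WT, of each tested member by family (x axis, on the log2(normalized count + 1) scale), with the standard error as a bar and a filled point where the limma adjusted p was under 0.05. The 16 filled points left of 0 run from Slc7a4 at -3.62 to Slc38a7 at -0.33, and the 6 right of 0 from Slc43a3 at 0.57 to Slc1a3 at 2.66.

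Genes of several cell types in the depot moved as well, where 20.2% of all genes tested were higher and 21.5% lower. Of 10 adipocyte markers 9 were higher in KO, with summed normalized counts of 524249.6 to 807449.0 in KO and 114396.2 to 227458.7 in WT. Of 8 macrophage markers 7 were lower, with sums of 32834.0 to 51469.3 in KO and 87896.0 to 206918.9 in WT, and of 8 markers of lipid-associated macrophages 7 were lower and 1, Lpl, which adipocytes also make, was higher (sums of 241615.0 to 307324.0 in KO and 238387.2 to 492487.1 in WT). All 6 mast cell markers (sums of 942.3 to 1282.7 in KO and 3926.5 to 11269.5 in WT), 4 of 6 T cell markers and 4 of 5 tested epididymis markers were lower. All 6 listed epididymis markers, tested or not, summed to 9.7 to 699.8 in KO and 50199.4 to 112589.7 in WT. Of 6 fibroblast and progenitor markers 3 were lower, and of 6 endothelial markers 2 were higher. Of 5 B cell markers 1 was lower, near the share of all genes tested (median log2 fold change -1.65). The B cell sums overlapped, at 223.9 to 1274.8 in KO and 879.9 to 2740.0 in WT. None of these lists had a marker under 10 in every library. Few markers of other lists passed: 1 of 5 mural markers was higher and 1 of 4 tested Schwann cell markers lower. None of 5 mesothelial and 2 tested skeletal muscle markers passed. The mural markers summed to 53702.7 in WT replicate 4, against 11581.2, 21274.1 and 15707.7 in WT replicates 1 to 3 and 19216.0 to 30914.9 in KO. In bulk tissue, fewer cells of a type and less RNA per cell cannot be told apart, and the part of these cell types in the changes of the transporters was not tested.

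The Slc1a family holds carriers of glutamate and of small neutral amino acids, and it was dominated by Slc1a5. Slc1a5 (ENSMUSG00000001918.17, chromosome 7, 16781340 to 16798274, plus strand, GRCm38) encodes ASCT2, a sodium-dependent exchanger of glutamine, serine and other neutral amino acids. It had 72165.0, 71706.6, 76631.5 and 71319.4 normalized counts in KO replicates 1 to 4, against 16834.7, 30130.2, 21234.8 and 25271.3 in WT. Every KO library lay above every WT library, and the KO libraries lay close together. The log2 fold change was 1.67 (SE 0.18, limma BH-adjusted p = 0.000472), a 3.19-fold rise. Per kilobase of exon Slc1a5 averaged 17483 ± 593 in KO and 5599.7 ± 1359.7 in WT (SD, n = 4 each), the highest level of any member in both groups. It made up 55.1 to 60.5% of the summed level per kilobase of all 59 members in KO libraries and 25.4 to 34.3% in WT libraries. That sum averaged 30329 ± 668 in KO and 18355 ± 2154 in WT (SD, n = 4 each).

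Slc1a3 (ENSMUSG00000005360.14, chromosome 15, 8634124 to 8710764, minus strand) encodes GLAST, a glutamate and aspartate carrier best known from astrocytes. It had 4496.5, 2524.3, 6840.6 and 9505.5 normalized counts in KO, against 703.6, 989.6, 652.6 and 1020.6 in WT. The groups did not overlap, although the KO libraries were spread widely, with replicate 2 lowest and replicate 4 highest. The log2 fold change was 2.66 (SE 0.38, limma BH-adjusted p = 0.00125), the largest rise among the members tested. The other tested Slc1a genes did not pass. Slc1a4, which encodes the neutral amino acid exchanger ASCT1, had 144.3 to 257.2 normalized counts in KO and 150.4 to 302.9 in WT. Slc1a7, a glutamate carrier of the retina, had 12.6 to 27.9 in KO and 3.85 to 13.0 in WT.

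Slc1a1, which encodes the glutamate and cysteine carrier EAAT3, had 154.0, 136.7, 140.8 and 151.6 normalized counts in KO, against 296.3, 583.7, 466.0 and 20.6 in WT. WT replicates 1 to 3 lay above every KO library and WT replicate 4 below every one. The log2 fold change was -0.48 (SE 0.93, limma BH-adjusted p = 0.704), and without WT replicate 4 it was -1.56 (adjusted p = 0.00191). Of its exonic bases 31.9% also belong to a gene on the opposite strand, and whether counting used the strand is not given in the sources used here. Slc1a2, the GLT-1 glutamate carrier of astrocytes and liver, was not tested. It had 2.43 to 5.98 in KO and 4.59, 5.77, 267.4 and 9.36 in WT replicates 1 to 4, so its WT signal came from the library with liver transcripts. Slc1a6 stayed under 10 in every library.

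**Figure D2:**
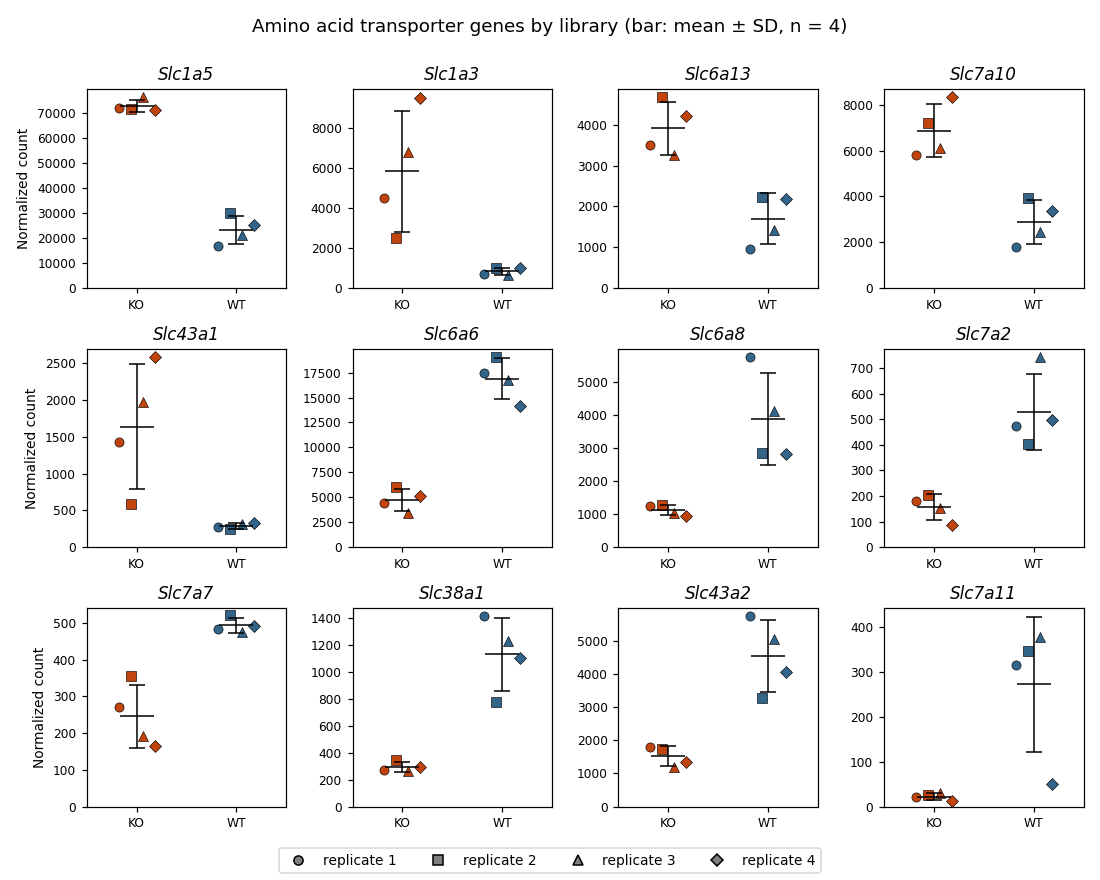
Normalized count (y axis, from 0) of 12 members in each KO library (left) and each WT library (right), with the replicate number as the marker shape and the mean ± SD of 4 libraries as lines. Slc1a5, Slc1a3, Slc6a13, Slc7a10 and Slc43a1 lie higher in every KO library, and the other 7 genes lie lower in every KO library, with WT replicate 4 of Slc7a11 (50.6) far below the other WT libraries.

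Both heavy chains were in the table. Slc3a2 (ENSMUSG00000010095.13, chromosome 19, 8706882 to 8723369, minus strand) encodes 4F2hc, or CD98, which brings Slc7a5, Slc7a6, Slc7a7, Slc7a8, Slc7a10 and Slc7a11 to the surface. It had 3471.5, 4259.9, 3654.6 and 3143.4 normalized counts in KO, against 5089.3, 4857.4, 4894.0 and 4665.7 in WT. All KO libraries lay below all WT libraries, by a small amount (log2 fold change -0.43, SE 0.10, limma BH-adjusted p = 0.00891). Without WT replicates 3 and 4 the change was -0.46 and did not pass (adjusted p = 0.0556). Slc3a1, the rBAT heavy chain of kidney and gut, was not tested, at 4.27 to 12.6 in KO and 0.94 to 23.2 in WT.

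In the Slc7a family, 10 of 15 genes were tested, 1 rose, 5 fell and 4 did not pass. The gene that rose, Slc7a10 (ENSMUSG00000030495.12, chromosome 7, 35186385 to 35201114, plus strand), encodes asc-1, a carrier of small neutral amino acids such as serine and glycine and a surface marker of white adipocytes. It had 5790.4, 7207.2, 6121.5 and 8340.1 normalized counts in KO, against 1803.5, 3951.5, 2454.4 and 3345.5 in WT. The groups did not overlap (log2 fold change 1.30, SE 0.24, limma BH-adjusted p = 0.00373). Per kilobase it ranked 2 of all members in KO, at 3252 ± 547, and 4 in WT, at 1368.0 ± 449.8 (SD, n = 4 each), and it held 77.8 to 87.3% of the summed Slc7a level in KO libraries and 44.5 to 62.9% in WT libraries. It shares 17.9% of its exonic bases with Lrp3 on the opposite strand.

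Slc7a11 (ENSMUSG00000027737.10, chromosome 3, 49892526 to 50443614, minus strand) encodes xCT, which takes up cystine in exchange for glutamate. It had 20.7, 24.8, 30.1 and 12.1 normalized counts in KO, against 314.6, 345.2, 376.9 and 50.6 in WT. WT replicate 4 was the lowest of its group and still above every KO library. The fall was -3.30 on the log2 scale (SE 0.64, limma BH-adjusted p = 0.00439), a 9.83-fold lower level, and -3.98 without WT replicate 4 (adjusted p = 0.000281). Slc7a4 (ENSMUSG00000022756.17, chromosome 16, 17572018 to 17583214, minus strand) is related to the cationic amino acid carriers but has no established transport of its own. It had 85.0, 89.7, 58.0 and 82.5 normalized counts in KO, against 943.9, 1929.1, 1723.9 and 276.2 in WT. Here too WT replicate 4 was lowest without reaching KO, and the log2 fold change was -3.62 (SE 0.56, limma BH-adjusted p = 0.00172), or -4.22 without that library (adjusted p = 0.000223). Slc7a4 shares 13.3% of its exonic bases with P2rx6 on the opposite strand.

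Arginine and other cationic amino acids enter cells through Slc7a1 (CAT1) and Slc7a2 (CAT2, induced in activated macrophages) and leave through Slc7a7 (y+LAT1), and all of these fell. Slc7a2 had 182.7, 205.9, 153.7 and 88.5 normalized counts in KO, against 472.4, 402.0, 742.6 and 496.2 in WT (log2 fold change -1.77, SE 0.29, limma BH-adjusted p = 0.00208). WT replicate 3, the library with liver transcripts, was highest, and without it the change was -1.59 (adjusted p = 0.00697). Slc7a7 had 271.2, 354.6, 191.3 and 163.7 normalized counts in KO, against 484.3, 522.2, 474.4 and 492.5 in WT (log2 fold change -1.07, SE 0.22, limma BH-adjusted p = 0.00613). WT libraries were close together and KO libraries were spread, without overlap. Slc7a1 had 504.5 to 634.9 normalized counts in KO and 935.7 to 1055.8 in WT, a log2 fold change of -0.83 (SE 0.09, limma BH-adjusted p = 0.000538).

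The promoters of Slc7a11 and Slc7a7, both lower in KO, are shown because they are the only ones of the changed members that held the letters of the amino acid response element, TGATGNAA, where the transcription factor Atf4 binds at genes such as Asns. Both are RefSeq sequences on GRCm38.p6, 5′ to 3′ on the strand of the gene, from 250 bases before to 50 bases after the start of transcription, with matches on either strand in capitals.
Slc7a11, chr3:50443564-50443863, minus strand: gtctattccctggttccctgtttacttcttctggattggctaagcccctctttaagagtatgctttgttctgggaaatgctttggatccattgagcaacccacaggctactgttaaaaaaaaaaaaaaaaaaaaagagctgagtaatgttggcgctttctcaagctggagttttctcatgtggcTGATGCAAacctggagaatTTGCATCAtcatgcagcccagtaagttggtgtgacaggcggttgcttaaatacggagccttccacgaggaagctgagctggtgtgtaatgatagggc
Slc7a7, chr14:54417895-54418194, minus strand: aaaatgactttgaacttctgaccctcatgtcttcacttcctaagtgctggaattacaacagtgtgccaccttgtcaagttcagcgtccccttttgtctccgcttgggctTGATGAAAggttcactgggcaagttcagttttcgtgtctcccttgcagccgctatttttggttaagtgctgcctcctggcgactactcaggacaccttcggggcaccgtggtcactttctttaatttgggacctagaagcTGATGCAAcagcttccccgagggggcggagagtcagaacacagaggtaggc
In Slc7a11 the matches begin 66 bases before the start, on the strand of the gene, and 47 bases before it, on the opposite strand. In the first of 5 listed Slc7a7 starts they begin 141 bases and 1 base before the start. The letters occurred in 3.97% of all 32851 mouse promoters of this length and in 7.94% of the 63 promoters of the 42 members that had one, Slc1a4 and Slc6a21 being the other genes. The promoter of the second listed Slc7a7 start overlaps the first. It holds the same TGATGCAA, 243 bases before that start, so 1 site counts in both promoters. A match is a description of letters, not a bound site. Among 18 genes of the amino acid response through Gcn2 and Atf4, 7 had a match in their promoter (Asns, Atf3, Chac1, Fgf21, Nupr1, Trib3 and Vldlr), and these did not share a direction. Asns, the asparagine synthetase, rose (log2 fold change 1.5, SE 0.21, limma BH-adjusted p = 0.00115), as did Chac1 (1.01, SE 0.30, adjusted p = 0.0277) and Nupr1 (0.76, SE 0.09, adjusted p = 0.000571). Atf3, a stress-induced factor, fell (-3.55, SE 0.38, adjusted p = 0.000531), and Fgf21, Trib3 and Vldlr did not pass.

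The light chains Slc7a5, Slc7a8 and Slc7a6, which carry large neutral amino acids, did not pass. Slc7a5 (LAT1) had 394.1, 326.4, 291.3 and 154.0 normalized counts in KO, against 303.6, 492.4, 445.6 and 483.1 in WT (log2 fold change -0.62, SE 0.29, limma BH-adjusted p = 0.12). Slc7a8 (LAT2) had 679.3 to 1271.6 in KO and 1021.0 to 1130.0 in WT, and its log2 fold change of -0.28 became -0.46 without KO replicate 2 (adjusted p = 0.0333). Slc7a6 (y+LAT2) had 495.5 to 598.2 in KO and 428.9 to 515.5 in WT, and Slc7a6os had 472.6 to 583.3 in KO and 478.5 to 580.9 in WT. Of the genes not tested, Slc7a9, the light chain of cystine uptake in kidney, had 165.5, 32.5, 1.07 and 2.43 in KO, against 0, 5.77, 2.78 and 0.94 in WT, so 2 KO libraries were high and the others overlapped WT. Slc7a3, Slc7a13 and Slc7a15 did not exceed 21.8 in any library, and Slc7a14 stayed under 10.

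The Slc6a family takes up taurine, creatine, GABA and amino acids with sodium and chloride, and of its 18 genes 10 were tested. Slc6a6 (ENSMUSG00000030096.8, chromosome 6, 91684053 to 91759066, plus strand), the taurine carrier TauT, had 4449.4, 6001.5, 3452.6 and 5131.1 normalized counts in KO, against 17500.6, 19103.6, 16789.2 and 14163.7 in WT. The highest KO library lay well below the lowest WT library. It was 3.6-fold lower in KO (log2 fold change -1.85, SE 0.17, limma BH-adjusted p = 0.000365). Per kilobase it ranked 9 of all members in KO, at 563 ± 127, and 2 in WT, at 1997 ± 243 (SD, n = 4 each), and it held 22.5 to 26.7% of the summed Slc6a level in KO libraries and 54.4 to 61.1% in WT libraries.

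Slc6a13 (ENSMUSG00000030108.14, chromosome 6, 121300227 to 121337733, plus strand), the GABA and taurine carrier GAT2, went the other way. It had 3515.2, 4679.5, 3251.6 and 4213.1 normalized counts in KO, against 965.9, 2233.0, 1434.2 and 2188.2 in WT. The groups did not overlap (log2 fold change 1.26, SE 0.27, limma BH-adjusted p = 0.00654), and per kilobase it stood at rank 3 in KO and rank 9 in WT. Slc6a12, its neighbour on chromosome 6 and the betaine and GABA carrier BGT1, had 33.3 to 80.0 in KO and 15.6 to 74.3 in WT and did not pass.

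Slc6a8 (ENSMUSG00000019558.14, chromosome X, 73673150 to 73682502, plus strand), the creatine carrier, had 1257.1, 1276.7, 1029.8 and 954.4 normalized counts in KO, against 5751.6, 2834.1, 4126.3 and 2809.0 in WT. All KO libraries lay below all WT libraries, and the WT libraries were spread (log2 fold change -1.73, SE 0.23, limma BH-adjusted p = 0.00102). Slc6a7, a proline carrier of the brain, was low in both groups, at 6.89 to 23.0 in KO and 40.3 to 56.6 in WT, and fell by 1.64 on the log2 scale (SE 0.37, limma BH-adjusted p = 0.00804). Without WT replicates 3 and 4 the change was as large, at -1.66, and did not pass (adjusted p = 0.0551).

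Enzymes that make or use the same molecules were read beside these carriers from a list of 9 tested genes of creatine, taurine and GABA metabolism. Of these, 4 were higher and 2 lower in KO (median log2 fold change 0.70), where 20.2% and 21.5% of all genes tested were. Cdo1 and Csad, which make taurine from cysteine, rose, with log2 fold changes of 1.91 (SE 0.22, limma BH-adjusted p = 0.000612) and 1.33 (SE 0.21, adjusted p = 0.00197). Abat, which breaks down GABA, rose by 1.74 (SE 0.21, adjusted p = 0.000726), and Aldh5a1, the next enzyme in that route, by 1.10 (SE 0.25, adjusted p = 0.0083). Gatm, which makes the precursor of creatine, had a log2 fold change of -1.47 (SE 0.17, adjusted p = 0.000659), and Ckb, the brain-type creatine kinase, of -1.81 (SE 0.25, adjusted p = 0.00111). The taurine carrier Slc6a6 was lower while the taurine-making enzymes and Slc6a13, which also carries taurine, were higher. The creatine carrier Slc6a8 was lower, as were Gatm and Ckb. Gamt, Ckmt1 and Alpl of the same list did not pass, with log2 fold changes of 0.26, -0.21 and 0.70 (limma BH-adjusted p = 0.339, 0.746 and 0.107).

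The remaining Slc6a genes did not pass or were not tested. The monoamine carriers Slc6a2 (noradrenaline) and Slc6a4 (serotonin) had 6.06 to 26.5 and 17.1 to 117.2 normalized counts in KO, against 20.4 to 36.5 and 55.8 to 132.0 in WT. Slc6a9, the glycine carrier GlyT1, had 163.4 to 198.8 in KO and 183.5 to 264.5 in WT, with a log2 fold change of -0.35 (limma BH-adjusted p = 0.0811) that passed without WT replicate 4 (-0.46, adjusted p = 0.019). On the opposite strand Slc6a9 shares 27.8% of its exonic bases with Ccdc24 and 9.94% with Gm17114. Slc6a17 and Slc6a19 had 36.4 to 150.5 and 7.28 to 19.5 in KO, against 50 to 75.8 and 17.4 to 27.9 in WT. Slc6a18, an amino acid carrier of the kidney, was not tested, at 0 to 2.56 in KO and 34.9, 72.1, 59.4 and 0 in WT replicates 1 to 4, the library at 0 being the one that also lacked Adam7. Slc6a16 had no read in KO, against 1, 3, 11 and 4 reads in WT replicates 1 to 4. The 19 WT reads make it at least 5.62-fold lower in KO by reads, with a floor of 3 reads over the group. This fold rests mostly on WT replicate 3, the library with liver transcripts, and was not computed without it. Slc6a15 had 7.52 to 14.6 in KO and 0 to 3.75 in WT, and Slc6a20a had 64.4, 25.6, 1.07 and 1.21 in KO, against 0.92 to 3.75 in WT. Slc6a20a and Slc6a20b are near copies of each other, and reads could be split between them. Slc6a5 and Slc6a21 reached at most 11.5 in KO and 22.3 in WT, and Slc6a20b stayed under 10.

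The Slc36a family carries small amino acids with protons, at the lysosome and at the cell surface. Its most abundant member, Slc36a2 (ENSMUSG00000020264.5, chromosome 11, 55158470 to 55185077, minus strand), encodes PAT2, a surface marker of brown and beige adipocytes. It had 3811.6, 3313.9, 3162.3 and 3409.0 normalized counts in KO, against 1939.2, 5195.9, 2912.1 and 5122.6 in WT. The KO libraries lay within the range of the WT libraries (log2 fold change -0.04, SE 0.30, limma BH-adjusted p = 0.934), and without WT replicate 2 or WT replicate 4 the change was 0.15, which did not pass either. Of 3 tested markers of brown and beige adipocytes 1, Dio2, was lower, and Cidea and Ppargc1a did not pass and overlapped between groups. All 5 listed markers, with Ucp1 and Elovl3 not tested, summed to 189.7 to 226.8 in KO and 240.3 to 545.9 in WT. Of the sum in WT replicate 4, Ucp1 made up 233.1. Slc36a1, the lysosomal carrier PAT1, had 662.1 to 929.7 in KO and 1101.1 to 1587.0 in WT (log2 fold change -0.79, SE 0.14, limma BH-adjusted p = 0.00272). Slc36a4 (PAT4) had 856.1 to 958.8 in KO and 1020.6 to 1564.0 in WT (log2 fold change -0.51, SE 0.14, adjusted p = 0.0181), and did not pass without WT replicate 3 (-0.44, adjusted p = 0.0537). Slc36a3 stayed under 10.

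The Slc43a genes divided. Slc43a1 (ENSMUSG00000027075.16, chromosome 2, 84838850 to 84863594, plus strand) encodes LAT3 and Slc43a2 (ENSMUSG00000038178.16, chromosome 11, 75531694 to 75577575, plus strand) encodes LAT4, both carriers of branched-chain amino acids, phenylalanine and methionine. Slc43a1 had 1426.1, 581.9, 1963.8 and 2573.5 normalized counts in KO, against 274.3, 243.3, 317.5 and 325.8 in WT (log2 fold change 2.31, SE 0.41, limma BH-adjusted p = 0.00299). Every KO library was higher, with KO replicate 2 nearest to WT, as for Slc1a3. Slc43a2 had 1807.6, 1726.2, 1184.5 and 1330.4 normalized counts in KO, against 5763.5, 3280.3, 5064.8 and 4052.4 in WT (log2 fold change -1.57, SE 0.20, adjusted p = 0.000877), and every KO library was lower. Per kilobase, Slc43a1 averaged 286 ± 148 in KO and 50.8 ± 6.75 in WT, and Slc43a2 averaged 151 ± 30.1 in KO and 452 ± 109 in WT (SD, n = 4 each). By these means LAT3 transcripts were the more abundant of the pair in KO and LAT4 transcripts in WT, but KO replicate 2 had more of LAT4 per kilobase, as all WT libraries did.

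Slc43a3 (ENSMUSG00000027074.14, chromosome 2, 84936579 to 84958509, plus strand) lies near Slc43a1, and its human protein carries purine nucleobases. It had 5055.0, 4917.9, 5546.5 and 6003.1 normalized counts in KO, against 3555.5, 3289.9, 3479.3 and 4172.2 in WT, without overlap (log2 fold change 0.57, SE 0.10, limma BH-adjusted p = 0.00308). Its level was the highest of the family per kilobase in both groups.

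The promoters of Slc36a1, lower in KO, and Slc43a1, higher in KO, are shown as the members past the test that held both the E-box CACGTG, which the lysosomal factors of the MiT family and Myc can bind, and TGACNNNGC, the core of the antioxidant response element. The sequences are again from RefSeq on GRCm38.p6, with matches on either strand in capitals.
Slc36a1, chr11:55204090-55204389, plus strand: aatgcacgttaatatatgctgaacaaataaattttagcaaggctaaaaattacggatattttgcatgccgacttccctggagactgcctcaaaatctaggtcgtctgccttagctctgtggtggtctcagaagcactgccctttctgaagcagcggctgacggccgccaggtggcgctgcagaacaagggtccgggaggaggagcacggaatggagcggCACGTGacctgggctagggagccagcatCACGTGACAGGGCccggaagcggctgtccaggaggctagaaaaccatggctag
Slc43a1, chr2:84840073-84840372, plus strand: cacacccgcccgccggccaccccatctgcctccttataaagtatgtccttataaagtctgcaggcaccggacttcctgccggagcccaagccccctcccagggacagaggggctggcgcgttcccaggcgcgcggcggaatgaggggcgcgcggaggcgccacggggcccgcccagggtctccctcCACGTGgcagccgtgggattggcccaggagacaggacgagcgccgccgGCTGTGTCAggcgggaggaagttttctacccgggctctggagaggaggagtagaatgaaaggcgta
In Slc36a1 an E-box begins 31 bases before the start and another 3 bases before it, and TGACNNNGC begins 1 base after it, sharing 2 bases with the second E-box. In Slc43a1 the E-box begins 64 bases before the start and TGACNNNGC lies on the opposite strand from 16 bases before it. The E-box occurred in 7.15% of all promoters and 12.7% of the members' promoters, and TGACNNNGC in 12.4% and 15.9%. Members with either set of letters were found among the higher, the lower and the uncalled genes, Slc6a13 being higher and Slc38a2, Slc38a7 and Slc7a1 lower.

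All 10 genes of the Slc38a family, the sodium-coupled neutral amino acid carriers, were tested, 4 were lower in KO and the other 6 did not pass by limma. Slc38a1 (ENSMUSG00000023169.15, chromosome 15, 96571418 to 96642913, minus strand), the glutamine carrier SNAT1, had 274.6, 346.9, 264.4 and 293.5 normalized counts in KO, against 1417.3, 774.1, 1230.0 and 1103.9 in WT. The groups stood well apart (log2 fold change -1.91, SE 0.18, limma BH-adjusted p = 0.000379). Slc38a2, the SNAT2 carrier that cells raise when amino acids are scarce, had 1775.7 to 2012.0 in KO and 2237.2 to 3029.0 in WT, a smaller fall (-0.44, SE 0.10, adjusted p = 0.00933).

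Slc38a9, an arginine sensor of the lysosome, had 394.5 to 448.2 normalized counts in KO and 500.1 to 653.1 in WT (log2 fold change -0.40, SE 0.10, limma BH-adjusted p = 0.0129), and without WT replicates 3 and 4 the change was -0.46 and did not pass (adjusted p = 0.0557). Slc38a7, which exports glutamine from lysosomes, had 811.5 to 890.2 in KO and 886.7 to 1242.1 in WT (-0.33, SE 0.10, adjusted p = 0.0325). It was the only member to pass with overlapping groups, and it did not pass when any of WT replicates 1, 3 and 4 or KO replicates 1, 2 and 3 was left out, with adjusted p values of 0.062 to 0.0744. Slc38a10 (ENSMUSG00000061306.16, chromosome 11, 120103960 to 120151346, minus strand) had the highest level of the family per kilobase. It had 8410.4, 9759.8, 8125.1 and 7545.7 normalized counts in KO, against 7594.5, 8301.2, 7676.1 and 9325.8 in WT, and the groups overlapped (log2 fold change 0.04, SE 0.11, adjusted p = 0.795). Slc38a6 had 482.6 to 607.6 in KO and 474.7 to 631.1 in WT.

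Slc38a4 and Slc38a3, system A and N carriers of liver, were uneven among WT libraries. Slc38a4 (SNAT4), an imprinted gene, had 100, 67.5, 25.8 and 9.7 normalized counts in KO, against 427.5, 846.3, 1487.1 and 29.0 in WT. WT replicates 1 to 3 lay above every KO library and WT replicate 4 within the KO range (log2 fold change -3.25, SE 1.22, limma BH-adjusted p = 0.0611). The change passed without WT replicate 4 (-4.44, adjusted p = 0.00452), by edgeR (-3.75, adjusted p = 0.023) and by DESeq2 (-3.78, adjusted p = 0.00163), and it was -2.56 without WT replicate 3 (adjusted p = 0.149). Slc38a3 (SNAT3), a glutamine carrier of liver, had 175.8, 143.6, 60.2 and 21.8 in KO, against 39.4, 27.9, 1370.2 and 14.0 in WT, high in the WT library with liver transcripts. Its log2 fold change was 0.14 (SE 1.36, adjusted p = 0.942), and 1.57 without WT replicate 3 (adjusted p = 0.138). Slc38a5 (SNAT5) had 24.3 to 139.7 in KO and 25.7 to 38.1 in WT, with a log2 fold change of 1.08 that missed the threshold by limma (adjusted p = 0.101) and passed by edgeR (1.35, adjusted p = 0.0419), by DESeq2 (1.34, adjusted p = 0.0147) and without KO replicate 4 (1.57, adjusted p = 0.005). Slc38a11 had 25.6 to 58.2 in KO and 6.42 to 30.9 in WT, with a log2 fold change of 1.30 (adjusted p = 0.0626) that passed without WT replicate 4 (1.67, adjusted p = 0.0182).

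**Figure D3:**
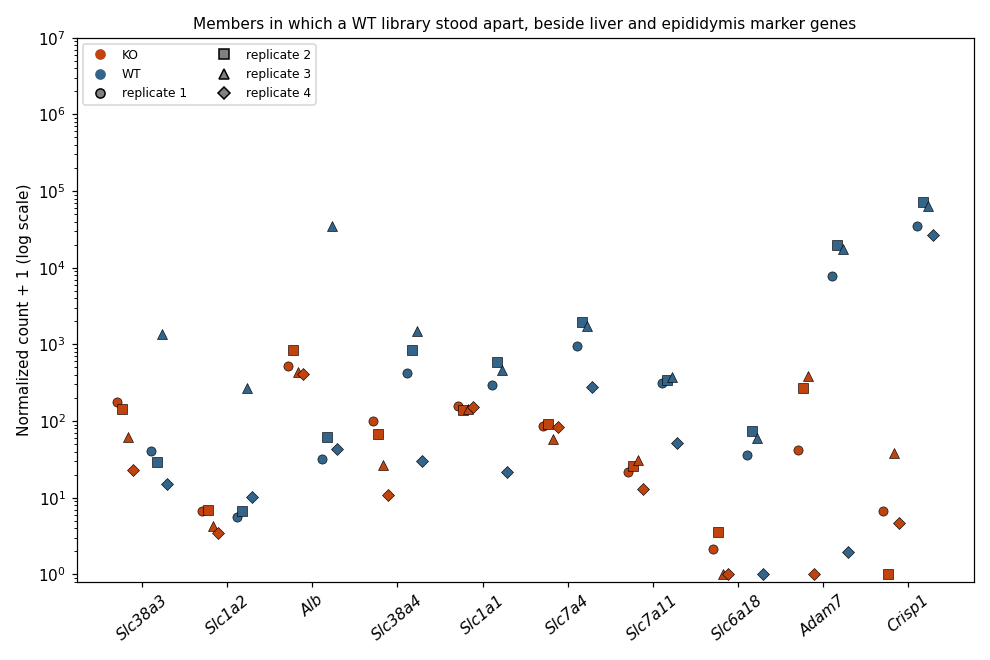
Normalized count + 1 (y axis, log scale) of members in which a WT library stood apart, beside Alb of liver and Adam7 and Crisp1 of the epididymis, with KO libraries in orange left of WT libraries in blue and the replicate number as the marker shape. Slc38a3 and Slc1a2 are high in WT replicate 3 as Alb is, while Slc38a4, Slc1a1, Slc7a4, Slc7a11 and Slc6a18 are low in WT replicate 4 as Adam7 is, and Crisp1 is high in all 4 WT libraries.

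The marker values move with these genes as follows. The hepatocyte list, chosen after the values of Alb were seen, summed to 440.2 to 1181.8 in KO and to 58.7, 100, 56827.7 and 75.8 in WT replicates 1 to 4. Adam7 was high in WT replicates 1 to 3, where Slc1a1, Slc7a4, Slc7a11, Slc38a4 and Slc6a18 were also higher than in WT replicate 4. The other tested markers of the epididymis list differed among themselves. Crisp1 and Spink8 were lowest of WT in replicate 4, at 26574.7 and 3938.2, but not absent. Defb42 and Akr1b7 were highest there, at 1440.1 and 80635.9, against 422.9 to 749.1 and 188.1 to 211.6 in the other WT libraries. Crisp1, another epididymal gene, was at 0 to 37.6 in KO and 26574.7 to 71824.5 in WT, so tract transcripts and genotype cannot be told apart across the groups. Their part in the falls of these members was not tested.

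**Figure D4:**
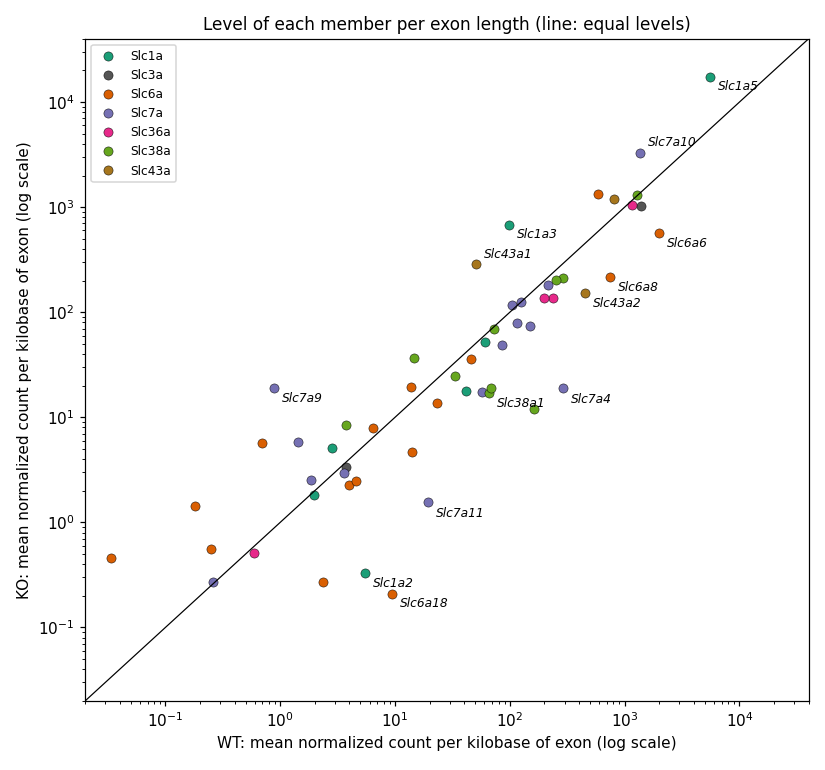
Mean normalized count per kilobase of exon of each member in KO (y axis, log scale) and in WT (x axis, log scale), colored by family, with the line of equal levels. Slc1a5 stands highest on both axes, Slc6a6 holds rank 9 on the KO axis and rank 2 on the WT axis, and members without a read in KO, such as Slc6a16, are not drawn.

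Further transporters, sensors and enzymes were read from lists by their counts in the same fit, in which 20.2% of all genes tested were higher and 21.5% lower. Of 8 tested carriers of amino acids and peptides outside the 7 families, 5 were lower and 3 did not pass (median log2 fold change -0.56). Among them Slc15a3, a lysosomal peptide and histidine carrier of immune cells, was lower by a log2 fold change of -2.88 (SE 0.31, limma BH-adjusted p = 0.000499) and Mfsd12, needed for cysteine import into lysosomes, of -2.36 (SE 0.27, adjusted p = 0.0006). Slc17a8, a vesicular glutamate carrier, and Slc15a4, a relative of Slc15a3, had changes of -1.99 and -0.60 and also passed. Of 5 tested partners and regulators of surface carriers, 1 was higher and 2 lower (median -0.38). These were the ubiquitin ligases Nedd4 (0.79, SE 0.15, adjusted p = 0.00389) and Nedd4l (-0.71, SE 0.15, adjusted p = 0.00605), which take carriers off the surface, and Arl6ip5, which inhibits Slc1a1 (-0.57, SE 0.13, adjusted p = 0.00934).

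The amino acid response list did not move one way, with 6 of 18 genes higher and 5 lower (median 0.12). Phgdh, the first enzyme of serine synthesis, rose (log2 fold change 1.79, SE 0.16, limma BH-adjusted p = 0.000304), as did Nupr1 (0.76, SE 0.09, adjusted p = 0.000571). Shmt2, a mitochondrial serine enzyme, fell (-1.08, SE 0.14, adjusted p = 0.000757). Of 28 genes of lysosomal amino acid sensing to mTORC1, 4 were higher and 8 lower (median -0.04). Fnip2 and Rragd, parts of the folliculin and Rag GTPase machinery, had log2 fold changes of -2.0 (SE 0.29, adjusted p = 0.00132) and -2.37 (SE 0.39, adjusted p = 0.00216), Sesn1, a sestrin, of -0.59 (SE 0.10, adjusted p = 0.00211) and Tsc2 of 0.36 (SE 0.08, adjusted p = 0.00648).

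Of 8 glutamine and glutamate enzymes, 3 were higher and 2 lower (median -0.04). The alanine aminotransferases Gpt2 and Gpt rose, with log2 fold changes of 1.58 (SE 0.17, limma BH-adjusted p = 0.000543) and 1.20 (SE 0.24, adjusted p = 0.00473), and the aspartate aminotransferases Got1 and Got2 fell, with -1.14 (SE 0.15, adjusted p = 0.000834) and -1.37 (SE 0.28, adjusted p = 0.0055). Of 9 genes of cystine and glutathione synthesis, 7 did not pass and 2 were lower (median -0.23), near the 21.5% of all genes tested that were lower. These were Cth, which makes cysteine (-1.62, SE 0.37, adjusted p = 0.00871), and Gclm, a subunit of the first enzyme of glutathione synthesis (-1.0, SE 0.26, adjusted p = 0.0143). Of 7 arginine enzymes 1 was higher, Nos3 of endothelium (1.18, SE 0.29, adjusted p = 0.0116), and 6 did not pass (median -0.45), while the arginine carriers Slc7a1 and Slc7a2 fell. Arg1 and Arg2, the arginases, had log2 fold changes of -1.46 and -1.76 that did not pass (adjusted p = 0.168 and 0.103).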

How the data were processed

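Titles of the samples gave group and replicate, and each of the 8 columns matched 1 title. Whether libraries stem from different animals is not labelled, so the p-values cover the spread between these libraries, which may be technical.

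The authors deposited a signal of normalized counts. Per the submitters' processing notes, the tools were STAR 2.7.7 and DESeq2 and the build GRCm38.p6, and how reads were counted, with or without strand, is not given in the sources used here. Within each library 100.0% of values were whole multiples of 1 step (tolerance 0.01 of a read), which gave back whole reads. Without a strand, reads of members and of overlapping genes on the opposite strand (14 members) cannot be told apart. Of the gene identifiers, 24802 of 24821 matched GENCODE M21 (GRCm38), which gave symbols, coordinates and exon lengths. The smallest sum of reads of a gene over the libraries was 10.

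Genes were tested with limma 3.58.1 (R 4.3.3) on the log2 of the deposited normalized count + 1, with group alone, a variance trend, robust moderation and Benjamini-Hochberg adjustment over all 17798 genes tested. Fold changes on this scale understate those of low genes. On the recovered reads, edgeR 4.0.16 called 7459 genes and DESeq2 1.42.0 called 8336, as alternatives. Within groups, no library pair agreed within sampling noise (chi-square over its degrees of freedom 24.7 to 410). The read floor covers counting error only.

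Members and lists were chosen with earlier results of these data known. Library values are printed for called members that averaged 50 or more and changed 2-fold or more, and for the highest member of each family per length, and up to 4 members of each pathway list with the smallest p are named. Other genes were named after their values were seen, and 1 member is counted but not reported by name here. Promoter sequences and motif matches are from RefSeq.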

Additional observations from a re-analysis of the deposited data

Results flagged for a closer look

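In 5 of the 84 groups of 4 libraries tested for a library far from its group, 1 library stood out, where chance gives about 1 in 20. Slc38a3 was at 1370.2 normalized counts in WT replicate 3, the library with liver transcripts. Slc1a5 was at 76631.5 in KO replicate 3, the highest of a tight group. Slc6a2 was at 36.5 in WT replicate 4. Slc38a7 was at 890.2 and Slc38a11 at 58.2 in KO replicate 4, each the highest of its group.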

How the results depend on the processing

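Of 21 alternatives, 20 gave 5641 genes (without WT replicate 3) to 9767 genes (library weights) past the test, 6 to 8 members higher and 14 to 19 lower. Leaving out both WT replicate 3 and WT replicate 4, chosen after seeing the data, gave 4588 genes, 7 members higher and 14 lower. Leaving out 1 library at a time gave 5641 to 7079 genes, 6 to 7 members higher and 14 to 18 lower. Of the 22 called members 17 were called in every alternative that tested them, and Slc3a2, Slc6a7, Slc36a4, Slc38a7 and Slc38a9 were not. The sign of 0 called members changed. Of the 20 uncalled members, 10 were called in at least 1 alternative. Among these, Slc6a4 and Slc7a6 were called with library weights and Slc6a2 without KO replicate 2. Slc6a19 was called without KO replicate 1 and by limma without trend and robust moderation. Quantile normalization shifted the median over all genes by 0.104 on the log2 scale and split the calls into 4593 higher and 3257 lower, beside 3592 and 3831, with 8 members higher and 15 lower. The causes of these shifts were not tested.

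Signs changed for 8 uncalled members. Slc6a12 was at -0.28 with library weights. Slc7a6os was at 0.00 by edgeR and 0.06 with quantile normalization, where Slc38a6 was at 0.03. Slc36a2 was at 0.16 with library weights, 0.18 without WT replicate 4 and KO replicate 3, and 0.11 without WT replicates 3 and 4. Slc38a3 was at -1.82 by edgeR, -1.74 with library weights and -0.49 without WT replicate 4 and KO replicate 3. Leaving out 1 library at a time, Slc1a1 ran from -1.56 to 0.02, Slc6a17 from -0.33 to 0.35, Slc7a6os from -0.08 to 0.02, Slc36a2 from -0.32 to 0.15, Slc38a3 from -0.60 to 1.57, Slc38a6 from -0.13 to 0.00 and Slc38a10 from -0.03 to 0.10.

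Replicate numbers did not pair the samples, with correlations of -0.143, 0.0511, -0.0405 and 0.172 between deviations of same-numbered libraries. With the replicate block 6266 genes passed, with 7 members higher and 16 lower. Members near 10 normalized counts are limited by depth.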
